A study of Arabidopsis thaliana with 9 samples.

Results

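Among the transcripts of Arabidopsis thaliana root tips, 86 of the 33560 listed genes were higher in the wox5-1 mutant and lower in the seu-3 mutant than in the wild type Col-0. They were chosen by 3 conditions: an average of 5 FPKM or more across the 9 libraries, a mean log2(FPKM + 1) at least 0.9 above Col-0 in wox5-1, and one at least 0.9 below Col-0 in seu-3. FPKM are sequenced fragments per length of transcript and per number of fragments mapped in that library. Of 12057 genes that reached this average, 207 passed the wox5-1 difference (1.72%) and 1367 passed the seu-3 difference (11.3%). Since both differences chose the genes, the values of the 86 in these contrasts are a description and carry no test. The same holds wherever the groups of a member are said not to overlap. With the same thresholds, 29 genes were lower in wox5-1 and higher in seu-3, 82 were lower in both mutants and 9 were higher in both.

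The 3 genotypes were each measured in 3 RNA sequencing libraries made from root tips of seedlings 5 days old. Col-0 is the standard laboratory strain. The wox5-1 mutant is altered in WOX5, which encodes a homeobox factor of the quiescent centre, the slowly dividing core of the stem cell niche, and seu-3 in SEU (SEUSS), the gene of a transcriptional co-regulator. The labels name no transgene in these groups, and growth was the same for all: seed was kept cold for 2 days, and seedlings grew upright with 1% sucrose in 16 h light and 8 h dark. The tissue is given as about 1 mm of root tip in one description and about 3 mm of root in another. GFP-sorted cells named in the same protocol are not analysed here. Whether replicates were sown separately is not stated, and p-values therefore reflect variation among these samples alone, which may be technical.

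Cells at the root tip divide in the meristem, then stop dividing and elongate. Dividing cells need new ribosomes, new histones for the copied DNA, and a syntaxin-guided membrane that separates the daughter cells. Elongating and dividing cells both remodel the wall, through enzymes that cut and rejoin xyloglucan, change the charge of pectin, or loosen the wall. In whole root tips, fewer cells of a type and less RNA per cell cannot be told apart.

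The targeted genes were checked first. WOX5 was listed at 0 in all 3 wox5-1 libraries, at 0.301, 0.461 and 0.524 FPKM in Col-0, and at 0.0884, 0 and 0 FPKM in seu-3. SEU was at 4.19 to 5.22 FPKM in seu-3, 13.2 to 18.7 in Col-0 and 13.0 to 13.3 in wox5-1. Each library summed to between 794809 and 839181 FPKM. Its depth could only be approximated, from the smallest steps between low values, as 7.25 to 12.5 M fragments. Of 17 epidermis and root hair markers, all 17 were at 1 FPKM or more in Col-0, and of 14 endodermis markers 11 were. A list of 15 pollen genes summed to 106 FPKM in wox5-1 replicate 3, to 18.5 and 10.6 FPKM in wox5-1 replicates 1 and 2 and to 3.33 to 6.93 in the other libraries; 9 of the 15 were listed at 0 throughout Col-0. That library was the highest of the 9 for 4 of the 86 genes.

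By product and textbook role the 86 genes were sorted, after their values were seen, into 10 classes. Apart from the class of another or no assigned role, the 3 with most genes were 19 cytosolic ribosomal proteins, 14 cell wall and cell surface proteins, and 12 proteins of RNA processing and RNA binding. Smaller classes were 4 ribosomal proteins of bacterial type, 4 of histones and cell division, 4 of mitochondrial import, folding and DNA binding, 7 of metabolism and transport, 3 growth regulators and signals, and 2 RNA polymerase subunits. A further 17 had another or no assigned role, and 13 of the 86 products are annotated only as uncharacterized protein or other RNA. The genes lay on all 5 chromosomes, with 14 to 22 on each.

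**Figure D1:**
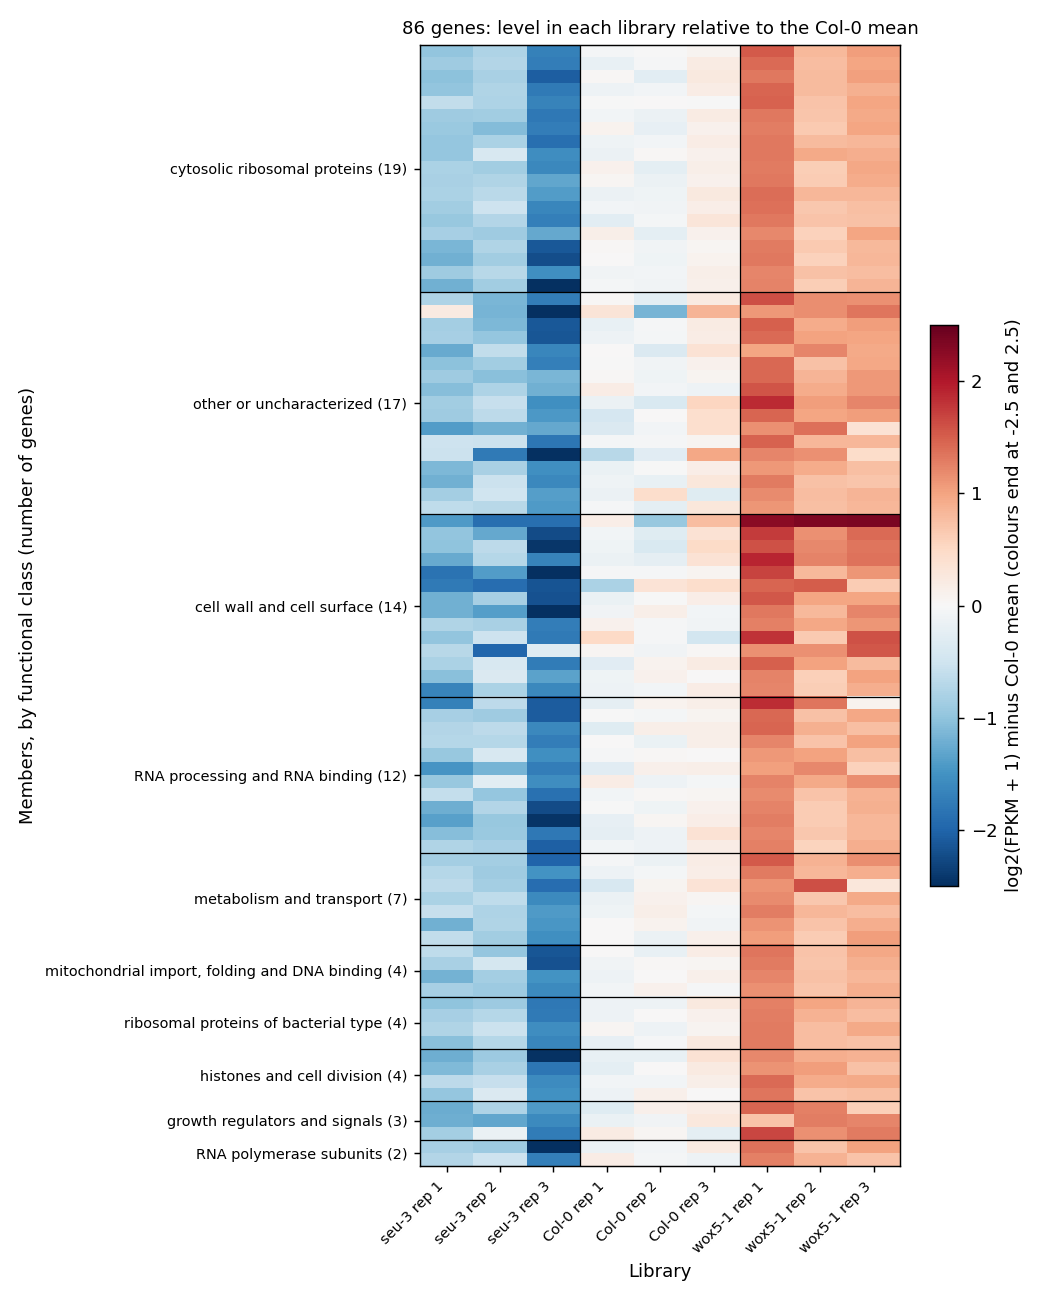
Level of each of the 86 genes (1 line each, grouped by class, number of genes in brackets) in each of the 9 libraries (columns), as log2(FPKM + 1) minus the Col-0 mean of that gene; red is above and blue below Col-0. The seu-3 replicate 3 column is the darkest blue and the wox5-1 replicate 1 column the darkest red in most lines.

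The promoters of 4 members are shown because their genes stand for the wall, histone, splicing and ribosome classes, and because the letters AACGG (the core of an element known from mitotic genes) or GGCCCA (the site II element known from ribosomal and other growth genes) occur in them. Each is the 200 bases upstream of the annotated start in the TAIR10.1 reference of RefSeq, 5′ to 3′ on the gene's strand, with AACGG and GGCCCA on either strand in capitals, so that CCGTT and TGGGCC also appear. No other annotated gene lies in these windows.
ENODL15, chr4:15401440-15401639, plus strand: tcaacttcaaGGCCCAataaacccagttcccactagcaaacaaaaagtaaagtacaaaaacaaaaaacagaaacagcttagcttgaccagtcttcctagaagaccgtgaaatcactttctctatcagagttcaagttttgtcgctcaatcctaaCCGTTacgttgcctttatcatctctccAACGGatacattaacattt
Histone H3.1 gene AT5G10390, chr5:3269595-3269794, minus strand: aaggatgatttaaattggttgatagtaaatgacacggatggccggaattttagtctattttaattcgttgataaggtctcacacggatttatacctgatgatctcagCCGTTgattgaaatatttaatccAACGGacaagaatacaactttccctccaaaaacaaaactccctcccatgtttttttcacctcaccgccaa
SmD3, chr1:28625671-28625870, plus strand: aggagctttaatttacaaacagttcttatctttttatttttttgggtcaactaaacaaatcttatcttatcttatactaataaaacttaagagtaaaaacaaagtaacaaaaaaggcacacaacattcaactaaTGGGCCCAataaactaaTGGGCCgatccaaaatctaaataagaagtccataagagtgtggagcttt
L39 family gene AT4G31985, chr4:15469641-15469840, plus strand: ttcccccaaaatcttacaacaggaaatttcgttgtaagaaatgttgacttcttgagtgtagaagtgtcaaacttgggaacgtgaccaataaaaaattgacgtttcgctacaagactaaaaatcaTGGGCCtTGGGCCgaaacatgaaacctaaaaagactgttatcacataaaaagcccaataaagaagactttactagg
ENODL15, a wall and surface gene, and the histone gene each carried AACGG 2 times in these bases. Such a match is a description and not a site of binding.

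Over the 300 bases from 250 upstream to 50 downstream of the start, counting both strands, AACGG was present for 34 of the 86 genes (39.5%) and for 26.1% of 12011 genes of at least 5 FPKM with a promoter in the reference. It was present for all 4 genes of histones and cell division, 6 of the 14 wall and surface genes and 9 of the 19 cytosolic ribosomal genes. For the 12 genes of RNA processing and RNA binding and the 3 growth regulators the count was 0. Elsewhere it was 1 of 2 RNA polymerase subunits, 2 of 7 metabolism genes and 2 of 4 mitochondrial genes. It was 2 of 4 ribosomal genes of bacterial type and 8 of the 17 with another or no assigned role. GGCCCA was present for 34.9% of the set and for 2407 of the 12011, and among 11 of the 19 cytosolic ribosomal genes. AAACCCTA, the telo box known from ribosomal genes and added after the members were seen, was present for 18.6% of the set and 5.64% of all. Ribosomal genes outside the set carried GGCCCA in 54.2% and AAACCCTA in 34.8% of cases. Without the ribosomal family by product name, 27.4% of the members carried GGCCCA, 8.06% AAACCCTA and 38.7% AACGG. The members had short transcripts, as described below. Among 1622 genes outside the set with transcripts of at most 1000 nt, the shares were 25.6% for GGCCCA, 9.12% for AAACCCTA and 26.6% for AACGG. The shares of GGCCCA and AAACCCTA in the members without the ribosomal family were thus near those of short genes. Of the other letters searched, TTAATGG was present for 14.0% of the set and 8.84% of all, CACGTG for 12.8% and 8.78%, TGTCTC for 15.1% and 13.1%, GAANNTTC for 12.8% and 10.9%, AGATATT for 12.8% and 11.6%, and TTGAC for 53.5% and 52.0%. GAANNTTC reads the same on both strands, as CACGTG does, and none of these shares was tested.

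The cytosolic ribosomal proteins, the building blocks of the ribosome that translates nuclear messages, were the most abundant class. Their summed level was 3697, 3581 and 4303 FPKM in the 3 Col-0 libraries, 2039.8, 2287 and 1200.4 FPKM in seu-3, and 9591, 6272 and 6964 FPKM in wox5-1. The groups did not overlap, which follows largely from the choice of these genes by both differences. The seu-3 replicate 3 library was the lowest and wox5-1 replicate 1 the highest. Single genes of the class differed from Col-0 by 0.90 to 1.13 (log2) in wox5-1 and by -1.54 to -0.95 in seu-3. The most abundant of all 86 was AT2G19730, an L28e family protein of the large subunit, at 720.1, 729 and 845 FPKM in Col-0. It was at 412, 470.2 and 261 FPKM in seu-3 and at 1774, 1260.5 and 1304 FPKM in wox5-1. The second L28e copy, AT4G29410, is also a member, with 222 ± 11.0 FPKM in Col-0, with 428 ± 101 in wox5-1 and 93.3 ± 40.6 in seu-3 (SD, n = 3). Other abundant members were AT5G47700 of the acidic stalk proteins (410 ± 80.4 FPKM in Col-0), AT4G14320, a zinc-binding ribosomal protein (374 ± 41.5), RPL27AB (362 ± 35.1) and RPS28 (361 ± 52.3). Their wox5-1 means lay between 708 ± 204 and 785 ± 201 FPKM, and their seu-3 means between 169 ± 60.5 and 192 ± 62.2.

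These ribosomal members lay at the edge of a family that was displaced as a whole. By product name 323 genes of at least 5 FPKM belong to ribosomal families, and 24 of them (7.43%) are in the set, against 0.713% of all genes. The match by name differs from the classes. It takes in AT4G12600 and AT5G20160, classed under RNA processing and RNA binding. AT3G10090 is missed, a cytosolic ribosomal member whose product name is of the OB-fold type. The 299 ribosomal genes outside the set had a median difference of 0.72 in wox5-1 and -1.09 in seu-3, against 0.01 and -0.19 over all genes of at least 5 FPKM. Of these 299, 288 had positive differences in wox5-1 and 290 negative ones in seu-3. Among all 11971 genes of at least 5 FPKM outside the set, these counts were 6114 and 8238. The seu-3 threshold was passed by 68.2% of the 299 and the wox5-1 threshold by 3.34%, against 10.7% and 1.01% of the 11971. For most of the 299 it was the wox5-1 threshold that was missed. An example is AT3G60245, at 0.77 and -1.23, which shares with the member AT4G14320 the product name of a zinc-binding ribosomal protein family. AT3G06700, the neighbouring L29e copy of the member AT3G06680, differed by 0.98 in wox5-1 and by -0.89 in seu-3. RPL27AB, RPL16A, AT4G31985 and RPS28 share at least 90% of an aligned stretch of 100 nt or more with another gene, and their values are uncertain because the counting could split reads between copies. Of the 24 members of ribosomal families, 4 are ribosomal proteins of bacterial type, which serve mitochondria or plastids. Among these 4 is AT3G01790 of the L13 family at 38.9 ± 3.21 FPKM in Col-0, with 78.3 ± 15.8 in wox5-1 and 18.5 ± 6.76 in seu-3.

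A fixed list of cytosolic ribosomal proteins held 24 names, of which 17 were matched to a gene and tested. None of these 17 genes is a member. By limma at an adjusted p below 0.05, 11 of the 17 rose and 0 fell in wox5-1, and 0 rose and 17 fell in seu-3. Their median differences were 0.72 and -1.13, and those of all 17062 tested genes 0.05 and -0.24. Over all tested genes 13.7% rose and 13.5% fell in wox5-1, and 6.66% rose and 34.2% fell in seu-3. Over all genes 2346 rose in wox5-1, a count that was 526 when replicate 2 of Col-0 was left out and 524 when replicate 1 of wox5-1 was. The count of 17 falls in seu-3 held in all alternatives, while the count of rises in wox5-1 was 1 when replicate 1 or 2 of Col-0 or replicate 1 of wox5-1 was left out. It was 2 after removal of Col-0 replicate 3, 6 after that of wox5-1 replicate 3, 7 after that of seu-3 replicate 1, and 17 after that of seu-3 replicate 2 or 3. At an unadjusted p below 0.05 all 17 were higher in wox5-1. A list for ribosome biogenesis and the nucleolus held 21 names, of which 17 were matched and 16 tested. Of these 16 genes, 0 rose in wox5-1 by limma (3 higher and 1 lower at an unadjusted p below 0.05). In seu-3, 14 fell, and the median differences were 0.52 in wox5-1 and -1.21 in seu-3. The wox5-1 count of rises was 2 with seu-3 replicate 2 left out and 7 with seu-3 replicate 3 left out. It was 11 when only the 6 compared libraries were fitted. The split of calls in seu-3 turned on scaling: it was 1136 higher and 5830 lower on the deposited FPKM, and 3186 higher and 2934 lower after median-ratio scaling.

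Proteins that process or bind RNA formed a class of 12, with differences of 0.91 to 1.11 in wox5-1 and -1.59 to -0.92 in seu-3. Core splicing proteins were among them: RUXF, SmD3 and LSM8 belong to the rings of small proteins that hold spliceosomal and related RNAs. SmD3 was at 10.3, 11.2 and 15.9 FPKM in Col-0, 5.35, 5.99 and 2.86 in seu-3, and 29.8, 20.2 and 22.6 in wox5-1, and the groups did not overlap. NOP10, a protein of the particles that modify ribosomal RNA, had 83.3 ± 10.2 FPKM in Col-0, with 160 ± 38.7 in wox5-1 and 38.1 ± 16.2 in seu-3 (SD, n = 3). AT4G12600 and AT5G20160, of the L7Ae/L30e/S12e/Gadd45 family of RNA-binding proteins, were above 110 FPKM in all 3 Col-0 libraries and above 185 in all 3 wox5-1 libraries, and at most 70.8 in seu-3. GRP7, a glycine-rich RNA-binding protein under control of the circadian clock, was uneven in wox5-1, at 1137, 794 and 335 FPKM, and was at 269, 332 and 347 FPKM in Col-0, and 96.0, 199 and 73.5 in seu-3. Its wox5-1 replicate 3 lay within the range of Col-0, so the wox5-1 mean of GRP7 rests on the other two libraries. The RNA polymerase subunits were NRPB10 (2.09-fold in wox5-1) and RPB5C (2.02-fold), each with all 3 libraries above Col-0.

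The 4 genes of histones and cell division had differences of 0.93 to 1.10 in wox5-1 and of -1.53 to -0.93 in seu-3. KNOLLE (SYP111), the syntaxin of the forming cell plate, was at 11.9, 11.9 and 17.9 FPKM in Col-0, 5.30, 6.85 and 1.63 in seu-3 and 32.8, 26.7 and 25.9 in wox5-1. The 3 groups did not overlap, and seu-3 replicate 3 was at less than any other library. Histone H2A gene HTA13 had 66.6 ± 11.0 FPKM in Col-0, with 130 ± 18.4 in wox5-1 and 28.6 ± 9.61 in seu-3. The histone H3.1 gene AT5G10390, which supplies the replication form of H3, had 26.4 ± 2.32, 52.3 ± 13.8 and 14.0 ± 5.89 FPKM. PATRONUS 1 (AT3G14190), a protector of chromosome cohesion in division, had 8.44 ± 0.829 FPKM in Col-0, with 19.4 ± 4.16 in wox5-1 and 4.15 ± 1.71 in seu-3.

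Of 30 tested mitosis and cytokinesis genes outside the set, 16 rose and 0 fell in wox5-1 (limma, adjusted p below 0.05). In seu-3, 0 rose and 26 fell, and the median differences were 0.68 in wox5-1 and -0.95 in seu-3. Among all tested genes 13.7% rose and 13.5% fell in wox5-1, and 6.66% rose and 34.2% fell in seu-3. The receptor-like kinase IMK2 had 9.83 ± 0.928 FPKM in Col-0 and 18.8 ± 2.19 in wox5-1, a difference of 0.87 ± 0.19 (log2, SE; limma adjusted p 0.0127), and it differed by -1.28 in seu-3 (limma adjusted p 0.00278). The mitotic cyclin CYCB2;4 rose by 0.96 in wox5-1 (limma adjusted p 0.0154), and both of these wox5-1 calls were lost without Col-0 replicate 2 and also without wox5-1 replicate 1. CYCB2;3 and CYCA2;4 fell in seu-3 by 1.18 and 1.33 (limma adjusted p 0.00253 and 0.00257). The 16 rises in wox5-1 became 0 when Col-0 replicate 2 or wox5-1 replicate 1 was left out. They became 4 after removal of Col-0 replicate 1, 8 after that of wox5-1 replicate 3, 9 after that of Col-0 replicate 3 and 10 after that of seu-3 replicate 1.

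The wall and surface class held the largest differences, with a median of 1.20 in wox5-1 and -1.36 in seu-3. AZI1, a lipid-transfer-like hybrid proline-rich protein of systemic defence, was at 3.13, 0.921 and 5.31 FPKM in Col-0, 16.7, 17.5 and 17.9 in wox5-1, and 0.374 in seu-3 replicate 1, and it was listed at 0 in seu-3 replicates 2 and 3. It was thus even across wox5-1 and uneven across Col-0, and its differences of 2.32 and -1.73 were on the log2(FPKM + 1) scale, which understates change at such low levels. XTH9, a xyloglucan endotransglucosylase/hydrolase, was at 6.45, 5.29 and 9.02 FPKM in Col-0, 2.94, 2.21 and 0.653 in seu-3 and 25.0, 16.1 and 19.7 in wox5-1. PME5, annotated in the pectin lyase-like superfamily and named for pectin methylesterase, was at 3.81, 3.55 and 5.83 FPKM in Col-0, 1.21, 2.22 and 0.659 in seu-3 and 18.8, 11.6 and 12.6 in wox5-1. Neither gene had overlapping groups, and their means in wox5-1 were 10.5 times those in seu-3.

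The thaumatin superfamily gene AT2G28790 had the most negative seu-3 difference of the 86, -2.13. It was at 56.9, 57.5 and 61.1 FPKM in Col-0, close together, at 15.6, 21.5 and 5.78 in seu-3 and at 191, 103 and 127 in wox5-1. The early nodulin-like genes ENODL14 and ENODL15, the promoter of the second of which is printed above, encode copper-protein-like proteins of the cell surface and sat at like levels: 32.4 ± 3.08 and 34.2 ± 4.06 FPKM in Col-0, 72.3 ± 12.9 and 79.4 ± 19.2 in wox5-1, and 9.87 ± 4.98 and 13.3 ± 6.13 in seu-3 (SD, n = 3). AT3G02120, a hydroxyproline-rich glycoprotein, had 26.0 ± 8.62 FPKM in Col-0, with 67.2 ± 9.80 in wox5-1 and 10.5 ± 6.04 in seu-3. AT1G09460, with the X8 domain that binds carbohydrate, was uneven in Col-0, at 9.47, 21.9 and 23.6 FPKM, and in wox5-1, at 48.9, 50.3 and 26.9, and even in seu-3, at 4.28, 3.84 and 3.06. The expansin EXPA15 (15.4, 10.5 and 7.47 FPKM in Col-0, 4.93, 7.13 and 2.43 in seu-3, 40.2, 17.4 and 34.5 in wox5-1) and XTH26 (5.05, 4.52 and 4.98 in Col-0, 2.63, 0.480 and 3.71 in seu-3, 11.8, 11.9 and 16.1 in wox5-1) had no overlap between genotypes. EXPA15 was uneven within each genotype, and XTH26 was even in Col-0 and uneven in seu-3. XTH26 departed from the others in that seu-3 replicate 3 was its highest seu-3 library.

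The families of these enzymes did not move as one. Of 18 tested pectin and xyloglucan genes outside the set, 1 rose and 2 fell in wox5-1 (limma, adjusted p below 0.05). In seu-3, 5 rose and 4 fell, and the median differences were -0.17 in wox5-1 and 0.01 in seu-3. The shares of all tested genes that rose and fell were 13.7% and 13.5% in wox5-1, and 6.66% and 34.2% in seu-3. XTH18 fell by 0.62 in wox5-1 (limma adjusted p 0.0327) and rose by 0.83 in seu-3 (limma adjusted p 0.00717), the reverse of XTH9. TCH4 (XTH22) rose by 0.97 in seu-3 (limma adjusted p 0.00566) and differed by -0.11 in wox5-1 (limma adjusted p 0.691). PME3 rose by 0.59 in wox5-1 (limma adjusted p 0.023) and AT3G26610, listed as PGX1, a polygalacturonase, fell by 1.03 in seu-3 (limma adjusted p 0.00432). The wox5-1 call of XTH18 was lost when replicate 1 or 2 of Col-0, 1 of seu-3, or 1 or 2 of wox5-1 was left out. That of PME3, the single rise in wox5-1, was lost when replicate 1 or 2 of Col-0 or of wox5-1 was left out, and 2 rose after removal of seu-3 replicate 2 or 3. The 2 falls there became 0 after removal of Col-0 replicate 2 or wox5-1 replicate 1, and 1 after that of Col-0 replicate 1 or seu-3 replicate 1. The 4 falls in seu-3 became 2 in 6 of the 9 such fits, those lacking replicate 1 or 2 of Col-0, 1 or 3 of seu-3, and 2 or 3 of wox5-1.

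Of 11 tested alpha-expansins outside the set, 2 rose in wox5-1, and 2 rose and 1 fell in seu-3. For all tested genes, 13.7% rose in wox5-1, and 6.66% rose and 34.2% fell in seu-3. EXPA13 rose by 0.68 in wox5-1 (limma adjusted p 0.00966). EXPA10 rose in both mutants, by 0.81 and 1.30 (limma adjusted p 0.0453 and 0.00586), from 1.66 ± 0.843 FPKM in Col-0. EXPA8 rose by 1.16 in seu-3 (limma adjusted p 0.00533) and differed by -0.31 in wox5-1. The wox5-1 call of EXPA10 was lost when replicate 1 or 3 of Col-0, 1 of seu-3, or 1 or 3 of wox5-1 was left out. The 2 rises in wox5-1 became 1 when replicate 3 of Col-0, 1 of seu-3 or 1 of wox5-1 was left out, and with the first of these 1 gene fell. The fall in seu-3 became 3 falls after removal of seu-3 replicate 2. Of 11 names listed for the AZI1 family, only 4 were matched to a gene and 3 reached the level for testing, AZI1 among them. The other 2, ELP and CWLP, do not describe the whole family. ELP rose in wox5-1 from 1434 ± 154 to 3198 ± 296 FPKM (limma adjusted p 0.000421) and by 0.49 in seu-3 (limma adjusted p 0.00737). CWLP rose by 1.56 in wox5-1 (limma adjusted p 0.003) and differed by -0.08 in seu-3 (limma adjusted p 0.811).

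Among the growth regulators, AN3 (GIF1), a co-activator that promotes cell proliferation with growth-regulating factors, was at 15.9, 14.1 and 11.4 FPKM in Col-0, 7.14, 12.2 and 3.35 in seu-3 and 45.8, 31.3 and 34.9 in wox5-1. The seu-3 and Col-0 libraries of AN3 overlapped, while the wox5-1 libraries stood apart. GATA4, a zinc-finger transcription factor, was at 52.0, 69.9 and 72.7 FPKM in Col-0, 26.7, 37.2 and 23.6 in seu-3 and 179, 155 and 97.5 in wox5-1. CLE5, of the family of secreted CLAVATA3/ESR-related peptides, was at 34.8, 37.2 and 47.2 FPKM in Col-0 and at 65.1, 97.0 and 93.2 in wox5-1. It was even in seu-3, at 16.3, 15.3 and 12.5 FPKM, and lowest of the wox5-1 libraries in replicate 1, unlike most of the set. WHIRLY 2 (ATWHY2), a DNA-binding protein of mitochondria, had 16.8 ± 1.11 FPKM in Col-0, with 32.7 ± 5.32 in wox5-1 and 7.45 ± 2.26 in seu-3.

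**Figure D2:**
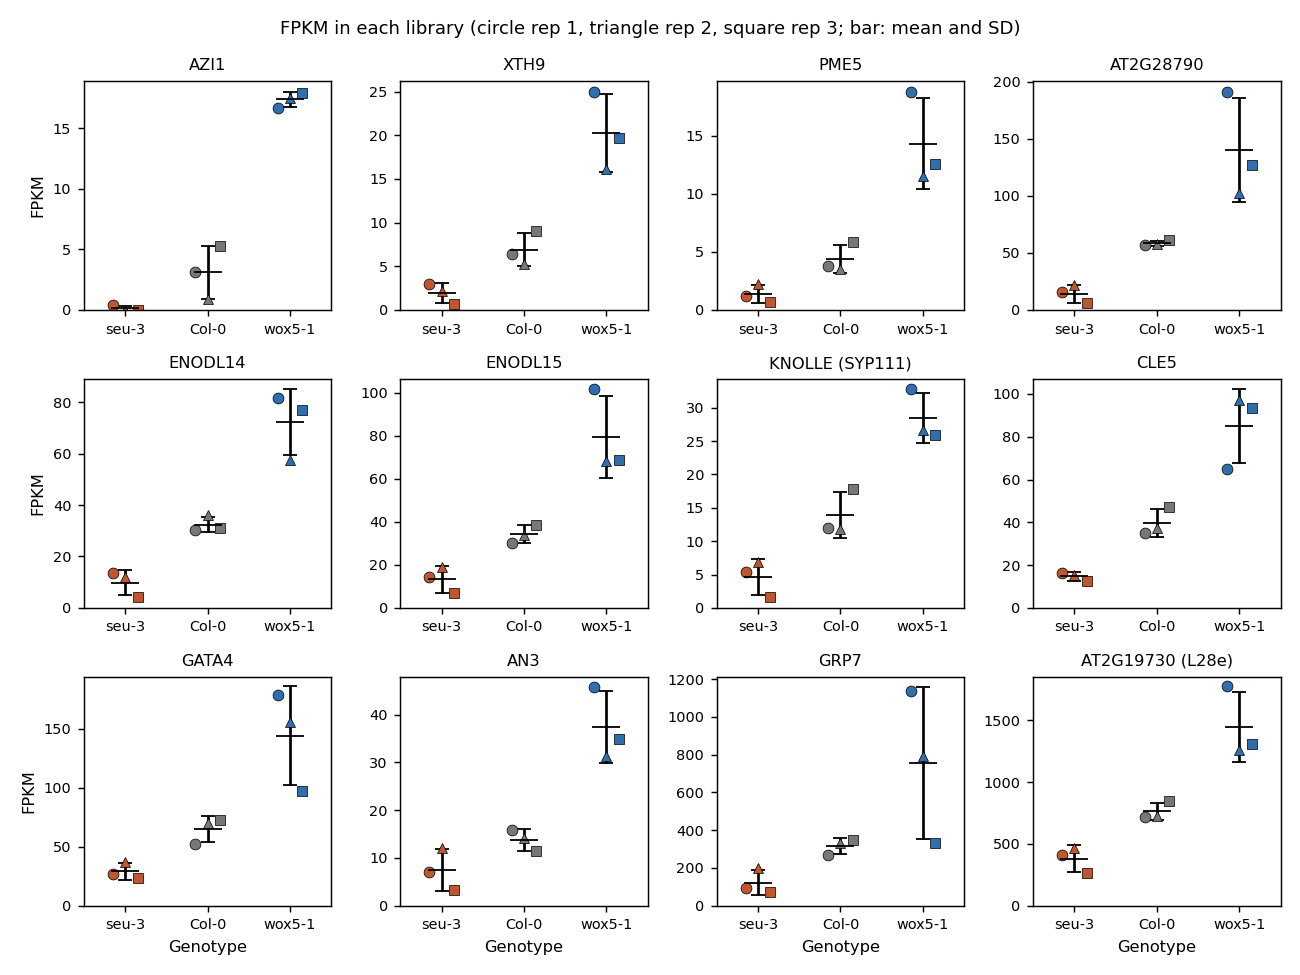
FPKM (vertical axes, each from 0) of 12 members in seu-3, Col-0 and wox5-1; symbols are the 3 libraries of a genotype and bars the mean and SD (n = 3). The genotype means are in the same order in all 12 panels, with GRP7 in wox5-1 replicate 3 (335) within the Col-0 range and AN3 in seu-3 replicate 2 (12.2) above the lowest Col-0 library.

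Among genes of metabolism and mitochondria, AT5G48480, of the glyoxalase I family, had 6.40 ± 0.889 FPKM in Col-0, with 16.1 ± 3.92 in wox5-1 and 2.35 ± 1.30 in seu-3. The methionine gamma-lyase gene MGL was erratic in wox5-1, at 13.1, 18.8 and 6.83 FPKM, the last within the Col-0 range of 3.88 to 7.19. TIM8, a chaperone of import into the inner mitochondrial membrane, had 43.7 ± 5.67, 89.7 ± 20.3 and 19.5 ± 9.44 FPKM in Col-0, wox5-1 and seu-3. Members without an assigned role included AT1G28395 (31.2 ± 5.40 FPKM in Col-0, 78.3 ± 15.2 in wox5-1, 13.3 ± 4.58 in seu-3), AT5G16250 (29.4 ± 4.09, 67.0 ± 14.5, 11.5 ± 5.02) and AT4G39300 (57.9 ± 6.55, 129 ± 22.6, 24.5 ± 10.7), each without overlap between genotypes. AT1G53542, the shortest at 186 nt, scattered from 6.43 to 29.0 FPKM in Col-0 and from 0 to 18.5 in seu-3. AT3G61100 and the ribosomal gene RS27A lie 199 nt apart on chromosome 3. They had 4.82 ± 1.65 and 185 ± 25.9 FPKM in Col-0.

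At the threshold, the members nearest inside were AT1G55205 (0.901 in wox5-1), RPL16A (0.903) and AT2G19730 (0.905). The genes nearest outside were AT5G27400, a methyltransferase-like gene (0.899), PDF2.5 of the defensin type (0.896) and TOM7-2 of the outer mitochondrial membrane (0.895). In 53 of the 86, the smaller of both differences was under 1. Annotated neighbours overlapped 27 members, 24 of them on the opposite strand, among them KNOLLE, HTA13 and AT1G09460, and since strandedness is not stated, fragments of both genes cannot be told apart there. RPS28, AT1G53542 and AT3G10610 each overlap a gene on their own strand, and AT4G29410 overlaps genes on both strands.

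Libraries did not contribute alike. All 3 wox5-1 libraries lay above all of Col-0 in 82 of the 86 genes, as in 29.8% of the genes of at least 5 FPKM, and all 3 seu-3 libraries lay below Col-0 in 83, as in 43.9%. Both held in 80. The share of all genes in which both held was not computed, and the rule itself favours such separation. Relative to the Col-0 mean, the median of the set was 1.31, 0.81 and 0.91 (log2) in wox5-1 replicates 1, 2 and 3, and -0.91, -0.79 and -1.72 in seu-3 replicates 1, 2 and 3. The wox5-1 replicate 1 library was the highest of the 9 for 76 of the 86, and for 31.4% of all genes of at least 5 FPKM. The seu-3 replicate 3 library was the lowest for 82 of the 86, and for 35.9% of all. Exceptions to the first were 10 genes, AZI1, XTH26, CLE5, AT1G09460, AT4G14270, MGL, AT1G53542, AT3G03170, AT5G49640 and AT1G50110, and to the second 4, XTH26, AT1G21090, AT3G03170 and AZI1, the last because it was at 0 in both seu-3 replicates 2 and 3. Ribosomal genes outside the set had the same order of libraries, with medians of 1.01, 0.52 and 0.60 in wox5-1 and -0.98, -0.71 and -1.61 in seu-3.

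**Figure D3:**
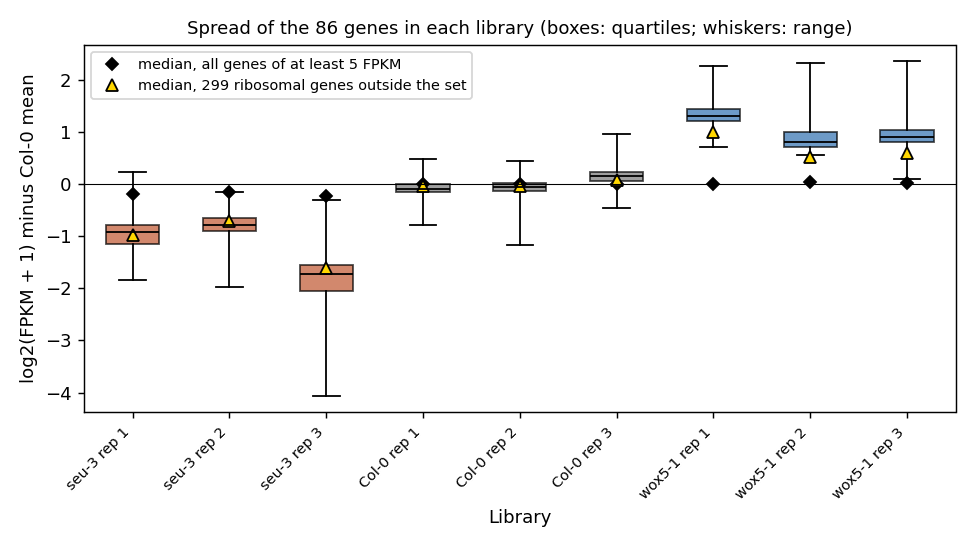
Distribution of log2(FPKM + 1) minus the Col-0 mean over the 86 genes in each library (boxes are quartiles, whiskers the full range), with the median of all genes of at least 5 FPKM (diamonds) and of the 299 ribosomal genes outside the set (triangles). The set's median is 1.31 in wox5-1 replicate 1 and -1.72 in seu-3 replicate 3, farther from 0 than in the other libraries.

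Without seu-3 replicate 3 the thresholds gave 38 genes, 35 of them members, and without wox5-1 replicate 1 they gave 32, 31 of them members. Without both, 18 genes were left, of which 16 were members, and the medians of the 86 were 0.85 and -0.87. Without wox5-1 replicate 2 there were 214 genes and without wox5-1 replicate 3 there were 132. In every one of the 9 sets made by leaving out a single library, 13 members remained, and 6 of these 13 were wall and surface genes, AZI1, XTH9, PME5, AT2G28790, ENODL14 and ENODL15. The others were CLE5, GATA4, AT2G19750, AT1G26740, AT1G28395, AT5G16250 and AT1G11120. Of the 19 cytosolic ribosomal members 1 remained throughout, AT2G19750 of the S30 family. Median-ratio scaling left 29 of the 86 and shifted the median of all genes of at least 5 FPKM in seu-3 from -0.19 to 0.08. Under it the members' medians were 0.96 in wox5-1 and -0.88 in seu-3.

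The members had short transcripts. Their median length was 893 nt against 1717 nt over genes of at least 5 FPKM, and 61.6% were at most 1000 nt long against 13.9%. Without the ribosomal family the members' median was 979 nt. The 29 genes with the reverse pattern had a median of 1220 nt and the 82 lower in both mutants one of 1393 nt. Genes outside the set also differed with length: their median difference in wox5-1 was 0.23 between 400 and 600 nt and fell off to -0.05 above 3000 nt, and that in seu-3 went from -0.24 to -0.16. The bin up to 400 nt held 48 genes, and those outside the set had medians of -0.16 and -0.34. After the median trend with length was taken out of each library, 24 genes passed both thresholds, 21 of them members, and the medians of the 86 were 0.86 and -0.90. Of the 21, 8 were wall and surface genes.

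**Figure D4:**
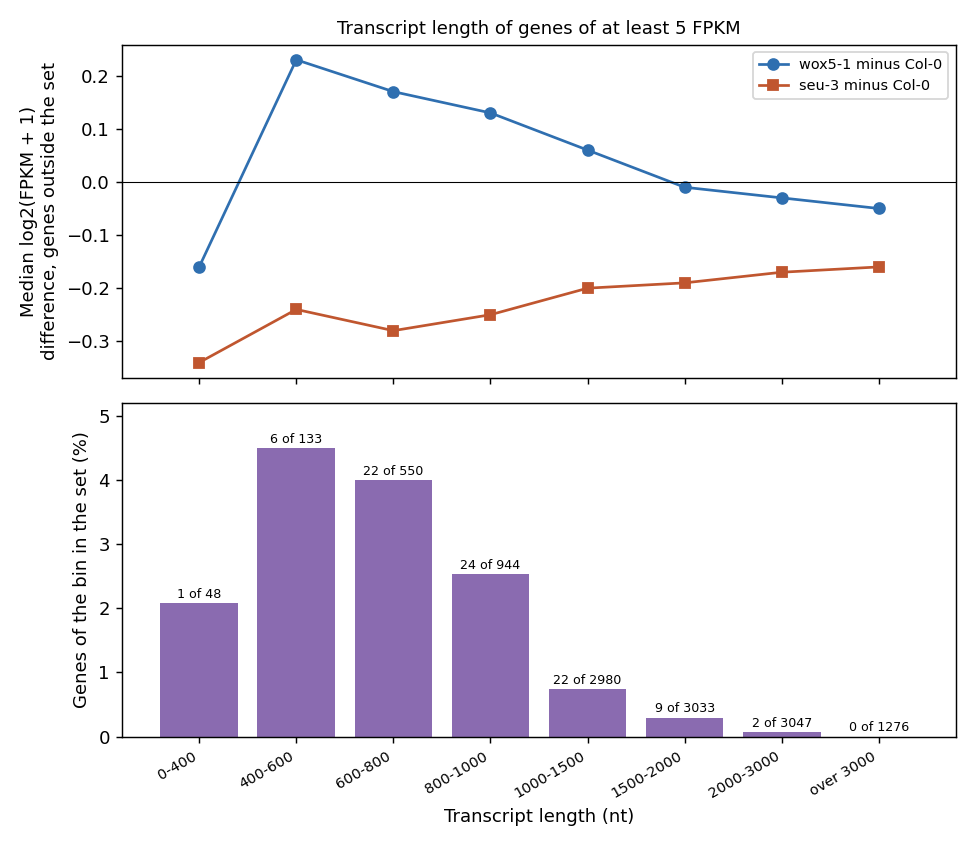
Top: median log2(FPKM + 1) difference from Col-0 by transcript length (nt) for genes of at least 5 FPKM outside the set, in wox5-1 (circles) and seu-3 (squares). Bottom: share of each length bin that is in the set, with the number of members and genes; it is 4.51% between 400 and 600 nt and 0.297% between 1500 and 2000 nt.

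Marker lists of root cell types were set beside the genotypes in summed FPKM and in limma calls at an adjusted p below 0.05. These calls stand against shares of 13.7% higher and 13.5% lower in wox5-1 over all tested genes. In seu-3 the shares were 6.66% higher and 34.2% lower. The 10 columella and root cap markers summed to 97.6 to 125 FPKM in Col-0, 94.2 to 100.1 in seu-3 and 78.1 to 92.0 in wox5-1, and 1 was listed at 0 throughout Col-0. Of their 6 tested genes 1 rose and 2 fell in wox5-1, and 1 rose and 3 fell in seu-3. The 14 pericycle and lateral root markers summed to 116 to 123 FPKM in Col-0, 99.8 to 108 in seu-3 and 86.8 to 118 in wox5-1, again with 1 at 0 throughout Col-0, and of 9 tested 2 fell in wox5-1, and 1 rose and 2 fell in seu-3. The 15 phloem markers, 4 of them at 1 FPKM or more in Col-0, summed to 12.5 to 13.6 FPKM in Col-0, 6.24 to 9.93 in seu-3 and 15.5 to 16.8 in wox5-1. Of the 4 that were tested, 0 passed in wox5-1 and 1 fell in seu-3. The 17 epidermis and root hair markers summed to 4170 to 4228 FPKM in Col-0, 4305 to 5430 in seu-3 and 2883 to 4118 in wox5-1, sums in which abundant genes weigh most; 4 fell in wox5-1, and 0 rose and 3 fell in seu-3, with a median difference of -0.12. Of the 11 tested endodermis markers 2 fell in wox5-1 and 3 fell in seu-3. The part of cell composition in the values of the 86 genes was not tested.

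**Figure D5:**
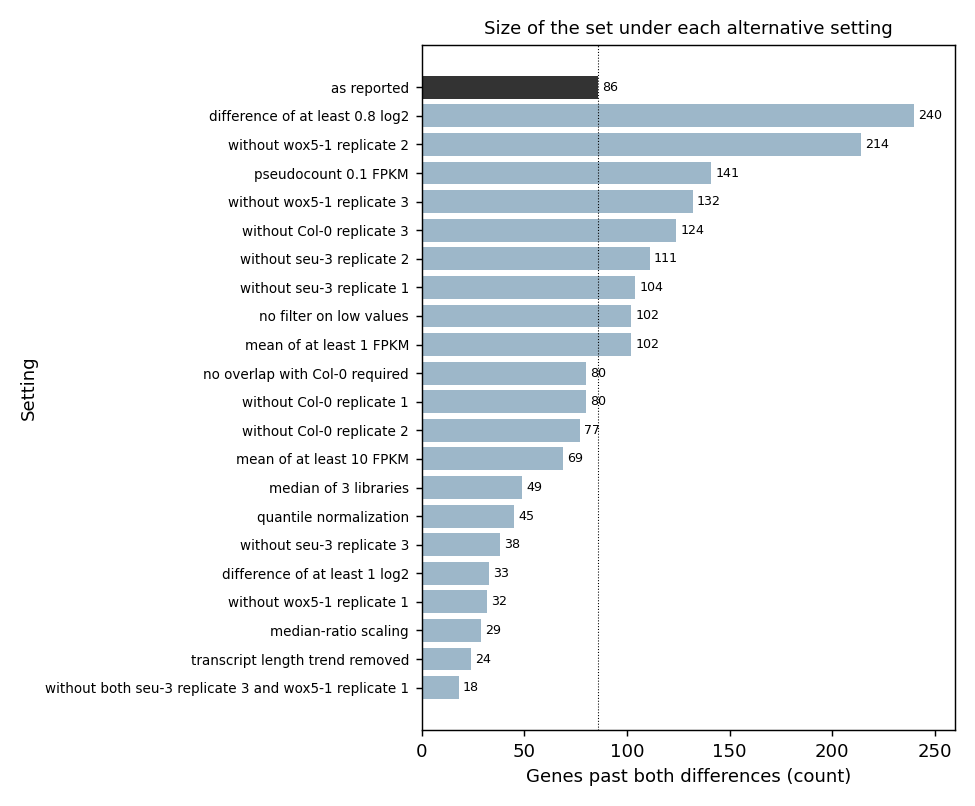
Number of genes past both differences (horizontal axis) under each alternative setting (bars), with the reported 86 as the dark bar and dotted line. The count runs from 18 without seu-3 replicate 3 and wox5-1 replicate 1 to 240 with a difference of at least 0.8.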

How the data were processed

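RNA sequencing of 9 root tip libraries, 3 of each genotype, was analysed from gene-level FPKM values that the authors deposited; per the submitters' processing notes they used Bowtie, Cufflinks and TAIR10, and versions and options are not given in the sources used here. Library sizes, RNA selection and strandedness are not stated. All columns were matched to samples by their labels. The members, gene lists, classes and tests were chosen with earlier results of these data known.

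FPKM were changed to log2(FPKM + 1), with a pseudocount of 1, and genotype means were subtracted. For genes outside the set, limma 3.58.1 in R 4.3.3 was fitted to 17062 genes averaging 1 FPKM or more, with genotype over the 9 libraries, an intensity trend in the variance prior and Benjamini-Hochberg adjustment over all genes at 0.05. The fit was also run on simulated data with independent noise in each gene. Such data hold no shift of a whole library or with transcript length, so that run cannot speak to such shifts. Fold values are ratios of mean FPKM. Gene names, products, lengths and promoters came from the TAIR10.1 annotation, which matched 32826 of the 33560 identifiers and all 86 members. Copies were sought with blastn 2.17.0. Python 3.11.15, numpy 2.4.6, pandas 2.3.3 and matplotlib 3.10.9 were used.

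Named genes were the 12 members with the largest smaller difference, the 6 highest in Col-0, members of gene lists, transcription factors, neighbours, the 3 nearest each side of the threshold and, of lists with a member, up to 2 other genes per mutant by smallest p. Further genes were named after their values were seen, to describe each class. Alternatives were other pseudocounts, filters, thresholds and scalings, medians, other limma fits and leaving out each library. Removing the trend with length and leaving out a pair of libraries were added after seeing the data.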

Additional observations from a re-analysis of the deposited data

How the results depend on the processing

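The count of 86 depended on most settings. It was 141 with a pseudocount of 0.1 FPKM, 33 and 240 with a difference of at least 1 and 0.8 log2, 29 with median-ratio scaling, 45 with quantile normalization and 49 with the median of 3 libraries in place of the mean. Leaving out 1 library gave 32 to 214. With 2 settings chosen after seeing the data it was 24 with the length trend removed and 18 without seu-3 replicate 3 and wox5-1 replicate 1. A mean of at least 1 or 10 FPKM, no filter, and a requirement of no overlap with Col-0 gave 102, 69, 102 and 80. With 53 of the 86 within 0.1 of a threshold, small shifts move many genes; the causes of these shifts were not tested.

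The limma calls numbered 4653 in wox5-1 and 6966 in seu-3 and ranged from 1523 to 5628 and from 4575 to 7117 when single libraries were left out. With the replicate number as a block they were 3186 and 5955. Same-numbered libraries had correlations of -0.38 to 0.29 in their deviations from the group means, and shared numbers were not read as pairs. The block brought the rises of mitosis genes in wox5-1 from 16 to 7 and of ribosomal protein genes from 11 to 7. Rises of mitosis genes were also 4 with a pseudocount of 0.1 FPKM and 8 with no filter, and those of ribosomal protein genes 3 with no filter and 17 with only the 6 compared libraries.

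Directions that turned were those of CWLP in seu-3, from -0.08 to 0.15 with median-ratio scaling, 0.31 with quantile normalization, and a range of -0.31 to 0.06 over the fits that each left out 1 library, positive in those lacking Col-0 replicate 2 (0.04), seu-3 replicate 1 (0.02) or seu-3 replicate 3 (0.06); of PME3 in seu-3, from -0.25 to 0.04 with median-ratio scaling; and of TCH4 in wox5-1, from -0.11 to 0.01 without wox5-1 replicate 3. None of these 3 differences had passed the test. Of the named list genes outside the set, the wox5-1 call was lost in 2 of 17 alternatives for IMK2, 4 for PME3 and 7 for XTH18, and in 11 of 16 for EXPA10, 10 for CYCB2;3, 7 for CYCA2;4 and 2 for CYCB2;4. The seu-3 call was lost for ELP and CYCB2;4 with quantile normalization. Of the genes just outside the threshold, AT5G27400 lost its wox5-1 call in 3 of 17 alternatives and PDF2.5 in 7, and TOM7-2 its seu-3 call in 5. Median-ratio scaling left 0 of the expansin falls and 2 of the 4 falls of pectin and xyloglucan genes in seu-3, and quantile normalization brought the mitosis falls from 26 to 17. FPKM give no exact depth, so low values such as those of AZI1 in seu-3 have no counting interval.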
